A study of Sus scrofa with 12 samples.

Results

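MicroRNA precursor clusters are the groups of probes on the porcine array whose annotation text gives the Ensembl biotype microRNA and no small nucleolar or small nuclear RNA, and 229 of the 25388 transcript clusters of the array met this rule. A transcript cluster gathers the probes designed for 1 locus. The liver of 12 male crossbred piglets, 5 weeks old at the start and of the cross Pietrain x (German Landrace x German Edelschwein), was measured with 1 Affymetrix array per pig. The 6 piglets of group PIV received sodium pivalate dissolved in NaHCO3 solution by mouth at a daily dose of 30 mg per kg for 28 days, and the 6 piglets of group CON received the NaHCO3 solution alone. Both groups ate the same diets, and the study asked what lowering the carnitine stores with pivalate, which leaves the body bound to carnitine, does to the liver transcriptome. The pigs were kept in pairs, and pens and litters are not given per pig in the sources used here, so the p-values, which take each pig as independent, may be too small.

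MicroRNAs are short RNAs that guide Argonaute proteins to messenger RNAs and thereby reduce their translation and stability. They are cut from long primary transcripts in the nucleus by DROSHA and DGCR8, exported as hairpin precursors by XPO5, and trimmed by DICER1 in the cytoplasm. Many lie inside introns of protein-coding genes, and several are often strung together in 1 primary transcript. In liver, miR-122 is the most abundant microRNA of hepatocytes, where it takes part in the control of cholesterol and fatty acid metabolism. The labels name no enrichment of small RNA, so a signal here does not separate primary transcript, hairpin and mature microRNA. In a whole piece of liver, moreover, fewer cells of a type and less RNA per cell cannot be told apart.

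The 229 clusters hold 207 distinct sets of values, because 22 pairs of clusters, 44 in all, had equal values in all 12 pigs. They carry 193 different Ensembl genes, none of which is paired with a symbol in the name tables used here, and 6 clusters without an Ensembl gene are named in the annotation as ssc-mir-210, ssc-mir-545, ssc-mir-27b, ssc-mir-199a-1, ssc-mir-374b and ssc-mir-493. Positions on Sscrofa10.2 are given for 223 of them, and 221 lie on a chromosome, with chromosome 7 (26), chromosome 1 (25) and chromosome X (24) holding the most. All clusters below are therefore given by position on Sscrofa10.2 or by the gene that holds them. The annotation marks 142 clusters as made of unique probes (type 1) and 87 as mixed, with probes that can also bind other transcripts (type 3). Better known liver microRNAs, MIR122 among them, are on the array under RefSeq entries without the Ensembl biotype. These 226 RefSeq microRNA clusters are outside the rule, and they are used only for comparison.

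The arrays resembled each other, with medians of all clusters between 4.75 and 4.88 and correlations across clusters between 0.977 and 0.991. The tissue had the markers of liver, since the 9 measured hepatocyte genes lay between 10.7 and 12.9, while 5 striated muscle genes lay between 3.52 and 4.62 and 4 erythroid genes between 3.03 and 4.12. The sample titles carry the numbers 7 to 12 in group PIV and 1 to 6 in group CON, and the labels do not say what these numbers stand for. If they give the order of the arrays, that order and the treatment cannot be told apart.

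Most microRNA precursor loci gave little signal in these livers. The median of the mean log2 signals was 2.73 over the 229 clusters, against 4.82 over the 25385 clusters tested, and 82 clusters lay under 2. A log2 signal of at least 5 in at least 6 pigs, called bright here as a convenient limit with no measured background behind it, was reached by 47 clusters (20.5%), against 46.4% of all clusters tested. The RefSeq microRNA clusters were as dim, with a median of 2.95 and 32 of 226 bright (14.2%), small nuclear RNA clusters were dimmer (median 2.12) and small nucleolar RNA clusters brighter (median 5.08). Because the signal depends on how well each probe binds as well as on the amount of RNA, an order of clusters by signal is not an order of RNA amounts.

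The brightest member was a cluster with a single probe at chrX:143366445-143366511, inside LOC100518409. Its log2 signal ranged from 9.98 to 10.71 in group PIV (median 10.19) and from 9.58 to 10.71 in group CON (median 10.13), so the groups overlapped throughout, and its host lay at 4.16. The next was the locus at chr12:22924868-22924945, inside LRRC3C, which a set of 2 probes measured at 9.48 and a set of 24 probes at 8.29. The locus at chr7:26834293-26834369 lay at 8.88 with 25 probes, the one at chr7:40840146-40840239 at 7.43 with 8 probes, and the one at chr2:66909061-66909137 at 7.29 with 6 probes. All of these clusters were of type 3. Among the type 1 clusters the brightest were chr8:131865409-131865496 (7.17, 10 probes), chr1:142595562-142595662 (6.92, 13 probes, on the strand opposite to SERF2) and chr7:127630196-127630277 (6.51, 13 probes).

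Mixed probes and brightness went together. Of the 87 type 3 clusters 31 were bright, with a median of 3.92, against 16 of the 142 type 1 clusters, with a median of 2.23. The 13 clusters that the annotation sets apart as rescue probe sets had a median of 6.59, and 10 of them were bright. Whether binding of other transcripts raised these signals was not tested. The dimmest 5 members, at chr13:3476072-3476156, chr2:37525889-37525986, chr10:51108469-51108567, chr5:44038236-44038309 and chr16:15183748-15183947, had mean log2 signals between 0.98 and 1.03, and 2 of these 5 were of type 1.

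The number of probes in a cluster, which ran from 1 to 27, went with both the signal and its spread between pigs. The 19 clusters with 1 to 5 probes were the brightest group, with a median of 4.90 and 10 of them bright. The 37 clusters with 6 to 9 probes had a median of 2.92 (8 bright), the 65 with 10 to 19 probes 2.18 (10 bright), the 53 with 20 to 24 probes 2.57 (9 bright) and the 55 with 25 or more probes 2.53 (10 bright). Other clusters of the array had medians of 4.21, 3.36, 4.11, 4.81 and 5.10 in the same 5 groups. Theirs thus rose from 6 to 9 probes up to 25 or more, while the members with 10 or more probes stayed low. The within-group SD, pooled over both groups, fell steadily with the number of probes, with medians of 0.33, 0.25, 0.22, 0.17 and 0.15 log2 units over the members and of 0.41, 0.29, 0.22, 0.18 and 0.17 over the other clusters. The plot of signal and SD against the number of probes shows both relations.

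**Figure D1:**
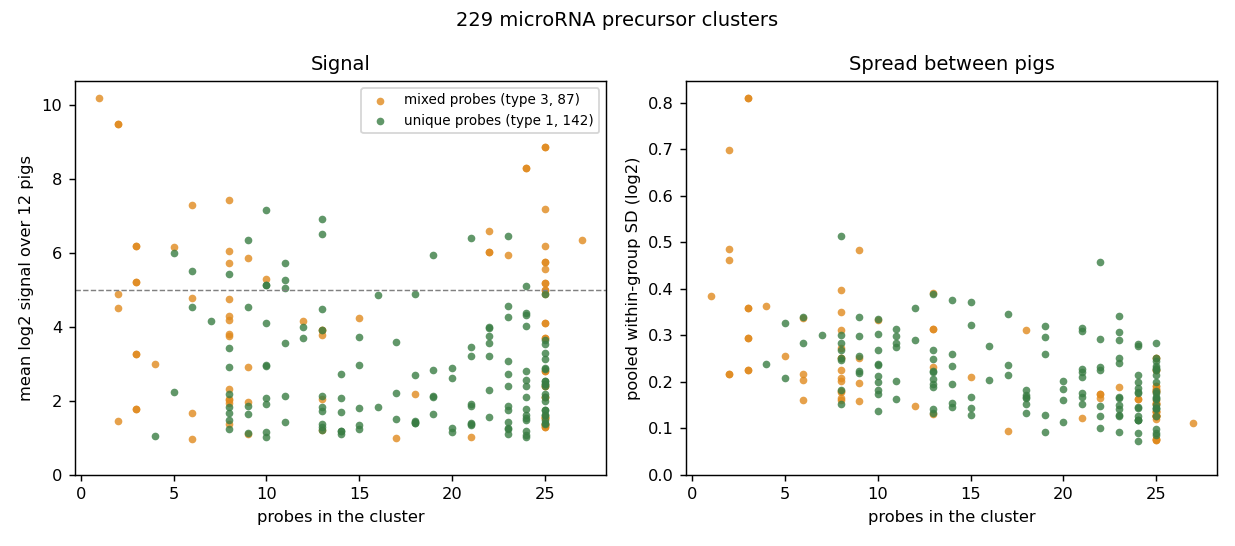
Mean log2 signal over 12 pigs (left; dashed line at 5) and within-group SD in log2 units, pooled over both groups (right), against the number of probes, with 1 point for each of the 229 microRNA precursor clusters and colours for mixed (type 3) and unique (type 1) probes. Clusters with 1 to 5 probes had a median signal of 4.90 and a median SD of 0.33, and those with 25 or more probes 2.53 and 0.15.

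The most variable members were also mostly clusters of few probes. At chrX:103221772-103221862, a cluster of 3 probes on the strand opposite to ATG4A, an autophagy protease gene, had a pooled SD of 0.81. The CON pigs K22 (1.02) and K42 (2.38) lay below all other pigs, which ranged from 3.05 to 4.04, and its log2 FC, group PIV minus group CON, was 0.62 with an SE of 0.38 (exact permutation test, p = 0.232). The clusters at chr10:70385034-70385106 (2 probes, SD 0.70), chr2:32443487-32443570 (8 probes, SD 0.51), chrX:107276659-107276753 (2 probes, SD 0.49) and chr9:83825882-83825979 (9 probes, SD 0.48) followed. None of the 5 passed the filter described below, but the cluster on chromosome 10 did so without PIV pig P31 (log2 FC 0.60) and the one on chromosome 2 without PIV pig P10 (log2 FC −0.48).

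For 8 Ensembl genes the array holds 2 probe sets with different values, which shows how far 2 measurements of 1 locus can differ. Of these, 5 lay within 1 log2 unit of each other and 2 lay more than 2 apart. Among the near ones, ENSSSCG00000019542 (1.04 and 1.01) and ENSSSCG00000018817 (1.46 and 1.02) were very dim, where closeness says little. Over the 12 pigs the correlation of the 2 sets ran from −0.18 (ENSSSCG00000018565, with log2 FCs of 0.23 and −0.02) to 0.87 (ENSSSCG00000022699). The locus at chr7:40840146-40840239 was at 7.43 with 8 probes and at 2.99 with 4 probes, and the locus at chr7:26834293-26834369 was at 8.88 with 25 probes and at 5.21 with 3 probes that lie inside PPP1R10, of which the array holds 2 clusters, at 6.87 and 7.04.

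Of the members named in the annotation, ssc-mir-210, whose human counterpart is induced in low oxygen, was the brightest. Its log2 signal was 6.46 ± 0.13 in group PIV and 6.47 ± 0.16 in group CON (SD, n = 6 each; exact permutation test, p = 0.933), and the groups overlapped. The mean log2 signal of ssc-mir-545 was 4.26, that of ssc-mir-27b 3.13, that of ssc-mir-199a-1 2.92, that of ssc-mir-374b 2.73 and that of ssc-mir-493 1.99. Their log2 FCs lay between −0.15 (ssc-mir-199a-1) and 0.14 (ssc-mir-545), and none of the 6 passed the filter.

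MicroRNAs strung together on the genome did not have equal signals. The cluster of ssc-mir-27b lies with MIR24-2 and MIR23B within 844 bp, inside C10H9orf3 (5.25), and the 3 had mean log2 signals of 3.13, 2.45 and 2.36. On chromosome 8, 4 members within 681 bp on the strand opposite to LARP7 lay between 1.11 and 2.89. In CDC20B (2.94), 3 members within 1193 bp lay at 1.38, 2.82 and 4.11, and on chromosome 7, 3 members within 6732 bp of MIR127 (1.95) lay between 4.33 and 5.12. The member ssc-mir-199a-1 (2.92) and its neighbour MIR214 (4.42) lie together within 5888 bp. None of the members in these groups passed the filter.

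The members hold no named microRNA of the hepatocyte list, but 7 of that list were measured in the RefSeq set and 3 of the 7 were bright. MIR122 had log2 signals from 7.19 to 8.19 in group PIV (median 7.51) and from 6.61 to 7.78 in group CON (median 7.21). Its mean was 7.55 ± 0.35 in group PIV and 7.22 ± 0.47 in group CON (SD, n = 6 each), a log2 FC of 0.33 with an SE of 0.20, and the groups overlapped (exact permutation test, p = 0.197). It passed the filter only without CON pig K42 (log2 FC 0.44). MIR192 (5.73 ± 0.10 in group PIV and 5.65 ± 0.21 in group CON) and MIR885 (5.54 ± 0.09 in group PIV and 5.54 ± 0.30 in group CON) were also bright, while the means of MIR455 (3.95), MIR194A (3.16), MIR194B (2.40) and MIR148A (1.28) were not. These values of MIR885 come from a cluster of 7 probes. A second, dimmer cluster of MIR885 (25 probes) had medians of 5.14 in group PIV and 5.24 in group CON. Above the mean of MIR122 (7.39) lay 8 members with 5 distinct sets of values, all of type 3.

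**Figure D2:**
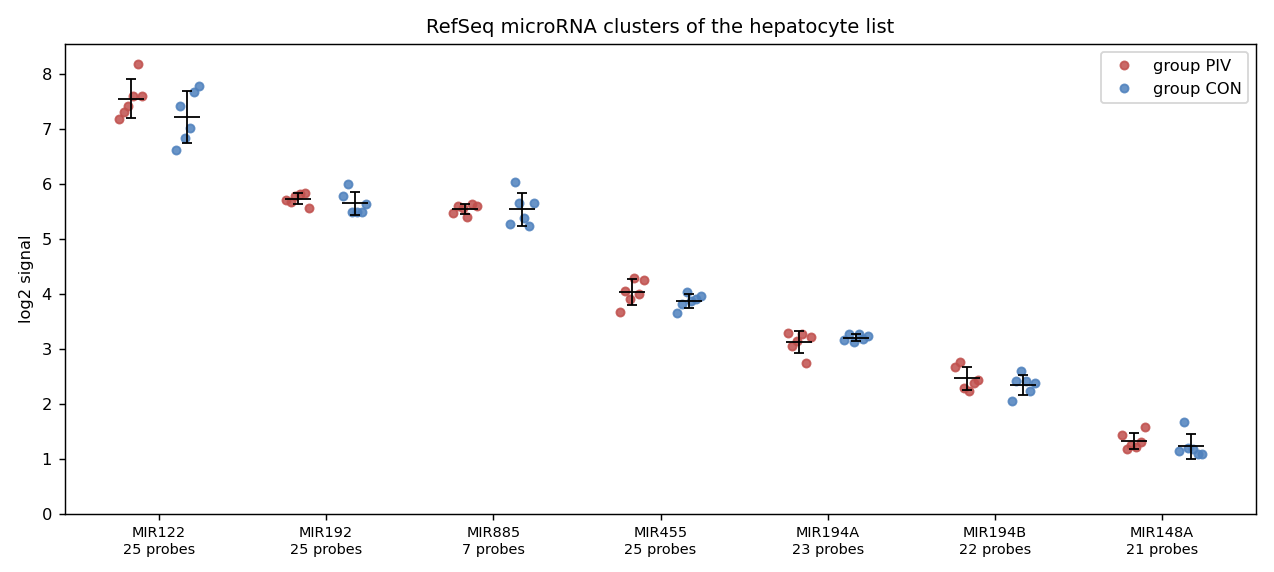
Log2 signal of each pig for the 7 measured RefSeq microRNA clusters of the hepatocyte list, with group PIV to the left of group CON, and black bars for the mean and SD of 6 pigs. MIR122 lay between 7.19 and 8.19 in group PIV and between 6.61 and 7.78 in group CON, and the groups overlapped for all 7.

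MicroRNA lists of other tissues were dim for the most part. None of 6 measured muscle microRNAs, 9 of the miR-17 group, 3 erythroid or 3 epithelial and endocrine microRNAs was bright, against 3 of 7 on the hepatocyte list. Among 12 neural (MIR124A-1, 5.04), 11 leukocyte (MIR181C, 6.31) and 10 let-7 and miR-98 microRNAs (MIRLET7E, 6.66) 1 each was bright. The same held for 11 endothelial and mesenchymal microRNAs (MIR143, 5.55). MIR150-1, which is not among the 11 leukocyte microRNAs counted, was bright too. Its median was 5.31 in group PIV (lowest 5.11) and 5.26 in group CON (lowest 5.19). Of microRNAs tied to lipid metabolism or coenzyme A, 4 of 10 were bright. The brightest of them was MIR107, which lies in PANK1, the gene of the enzyme for the first step of coenzyme A synthesis, with 6.73 ± 0.16 in group PIV and 6.52 ± 0.36 in group CON (exact permutation test, p = 0.210). Its log2 FC was 0.21 with an SE of 0.14, and it passed the filter only without CON pig K42 (log2 FC 0.32). None of the 10 passed in the fit of all pigs.

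Few microRNA precursor clusters differed between the groups, and none did after adjustment. The filter of the study asks for a fold change (FC) larger than 1.2, up or down, together with an unadjusted p under 0.05, here from limma. Of the 229 members, 10 passed (4.37%), 6 higher and 4 lower in group PIV, against 1.82% of all clusters tested (1.03% higher and 0.788% lower). Counting clusters of equal values once, 9 of 207 passed (6 higher, 3 lower). Of the RefSeq microRNA clusters 4 of 226 passed (1.77%), of the small nuclear RNA clusters 27 of 626 (4.31%) and of the small nucleolar RNA clusters 39 of 359 (10.9%). A share above that of all clusters was thus not particular to the members. At an unadjusted p under 0.05 without a limit on the FC there were 13 of 229 members, against 921 of 25385 clusters tested (3.63%). After Benjamini-Hochberg adjustment over the 25385 clusters with limma no member had a p under 0.05, the lowest adjusted p among members being 0.9996, and no other cluster of the array did either. With the methods' t-test 7 of 229 members passed the filter, against 300 of 25385 clusters tested (1.18%), and these 7 were among the 10 of limma. The 3 that failed it were the members at chr14:143674827-143674931, chr14:113244928-113245014 and chr5:18030421-18030496, described below.

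The number passing has to be read against the number of probes, since clusters of few probes passed more often over the whole array. Among members, 3 of 19 passed with 1 to 5 probes, against 9.9% of all clusters with as many. With 6 to 9 probes 1 of 37 passed, against 5.78% of all clusters. With 10 to 19 probes 4 of 65 passed, against 3.54%, with 20 to 24 probes 1 of 53, against 1.69%, and with 25 or more probes 1 of 55, against 1.04%. The members' share thus lay below that of all clusters with equally many probes in the group of 6 to 9 probes and above it in the others. The difference was small with 20 to 24 probes (1.89%). All clusters include the members, and without them the share with 1 to 5 probes was 8.54%. With counts of 1 to 4 no group of members is shown to differ from the clusters with equally many probes.

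**Figure D3:**
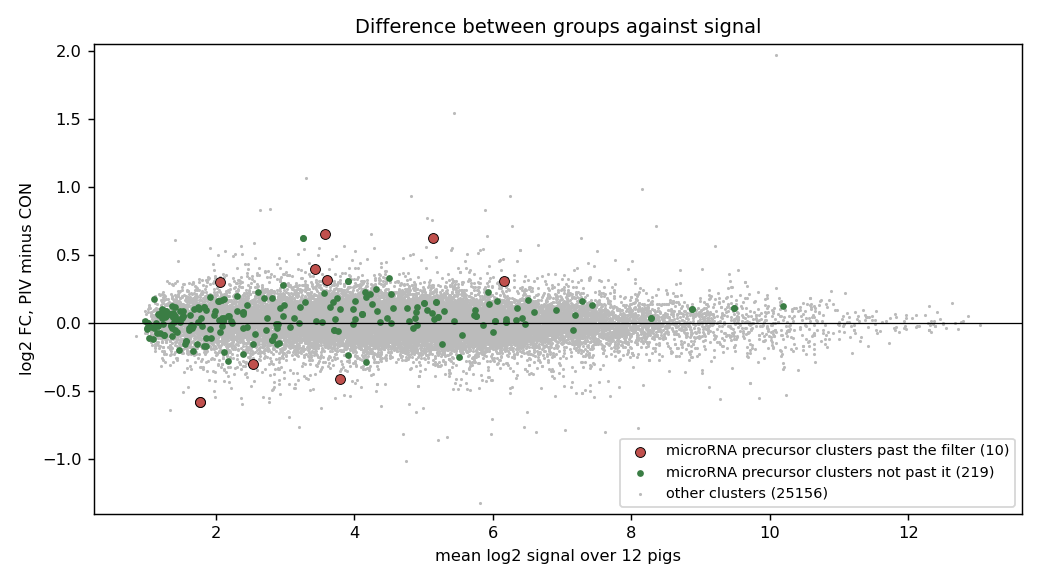
Log2 FC, group PIV minus group CON, against the mean log2 signal over 12 pigs for the 229 microRNA precursor clusters (green, and red with a black edge for the 10 past the filter) and the 25156 other clusters (grey). The members lie between −0.58 and 0.65, and 8 of the 10 past the filter have a mean log2 signal under 4.

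The clearest difference belonged to ENSSSCG00000019641 at chr16:25476157-25476244 on the minus strand (10 probes, type 1), which lies inside RICTOR, the gene of a defining subunit of the kinase complex mTORC2. The sources used here do not tell whether it lies in an exon or an intron of RICTOR. Its log2 signal ranged from 5.23 to 5.65 in group PIV (median 5.46) and from 4.47 to 5.22 in group CON (median 4.79). All 6 PIV pigs lay above all 6 CON pigs. The log2 FC was 0.62 with an SE of 0.13 (5.44 ± 0.17 in group PIV and 4.82 ± 0.29 in group CON, SD, n = 6 each), and the exact permutation test gave p = 0.00216, the smallest it can give, while limma gave an adjusted p of 0.9996. Without any 1 pig the log2 FC stayed between 0.55 and 0.70 and the cluster passed the filter. RICTOR itself, measured with 38 probes, was at 6.04 in group PIV and 5.93 in group CON (log2 FC 0.11, SE 0.10) and did not pass. A second member without overlap between the groups was a cluster of 22 probes at chr14:98002687-98002778, from 3.74 to 4.09 in group PIV and from 3.59 to 3.71 in group CON, whose log2 FC of 0.18 was too small for the filter (exact permutation test, p = 0.00216). Groups without overlap were thus seen in 2 of 229 members, both higher in group PIV, against 0.158% of all clusters tested, or 0.0945% for those higher in group PIV and 0.063% for those lower.

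The largest FC among members past the filter was that of ENSSSCG00000019661 at chr13:58623603-58623720 (22 probes, type 1). Its log2 signal ranged from 3.42 to 4.32 in group PIV (median 3.99) and from 2.36 to 4.02 in group CON (median 3.28). The groups overlapped, because CON pig K22 (4.02) lay with the PIV pigs, and CON pig K42 (2.36) lay below all others. The log2 FC was 0.65 with an SE of 0.22 (exact permutation test, p = 0.0195), and it lay between 0.47 and 0.81, past the filter, without any 1 pig.

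The remaining 4 higher members had smaller differences, with overlapping groups. At chr3:34120473-34120567 (8 probes) the log2 signal was 3.64 ± 0.24 in group PIV and 3.24 ± 0.27 in group CON (log2 FC 0.39, SE 0.13; exact permutation test, p = 0.0216), and 3 PIV pigs lay above all CON pigs. This cluster also passed without any 1 pig. At chr7:62951504-62951578 (17 probes), on the strand opposite to NEIL1, which encodes a DNA glycosylase of base excision repair, it was 3.76 ± 0.24 in group PIV and 3.45 ± 0.23 in group CON (log2 FC 0.32, SE 0.12; exact permutation test, p = 0.0346), and without CON pig K22 the log2 FC of 0.28 no longer passed. At chr14:75678773-75678867 (10 probes), inside CTNNA3, the gene of a catenin of cell adhesion, it was 2.22 ± 0.19 in group PIV and 1.92 ± 0.23 in group CON (log2 FC 0.30, SE 0.12; exact permutation test, p = 0.0368). That cluster did not pass without PIV pig P12 (log2 FC 0.26) or CON pig K22 (0.23), and the cluster of CTNNA3 that holds it (31 probes) had a log2 FC of 0.07, while a second cluster of that gene (25 probes) had −0.07. At chr5:18030421-18030496 (5 probes, type 3) it was 6.32 ± 0.21 in group PIV and 6.01 ± 0.29 in group CON (log2 FC 0.31, SE 0.13; exact permutation test, p = 0.0671). This last one, the brightest member past the filter, was lost without any of the PIV pigs P29 and P50 or the CON pigs K1, K22, K23 and K42 (log2 FC 0.23 to 0.30), and with array weights (log2 FC 0.27) or the methods' t-test.

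Among the lower members the largest difference was that of ENSSSCG00000024730 at chrX:28193680-28193743, which has only 3 probes of type 3 and is on the array in 2 clusters of equal values. Its log2 signal ranged from 1.23 to 1.96 in group PIV (median 1.35) and from 1.68 to 2.73 in group CON (median 1.94), and 4 PIV pigs lay below all CON pigs. Both groups were thus in the dimmest range of the array. The log2 FC was −0.58 with an SE of 0.18 (exact permutation test, p = 0.0173), and it lay between −0.68 and −0.45, past the filter, without any 1 pig.

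ENSSSCG00000018516 at chr14:143674827-143674931 (13 probes, type 3) was 3.59 ± 0.26 in group PIV and 3.99 ± 0.49 in group CON (log2 FC −0.41, SE 0.19; exact permutation test, p = 0.0996). The call was lost without any of the PIV pigs P10, P12, P30 and P31 or the CON pigs K1, K3, K4 and K42 (log2 FC −0.41 to −0.26), and with a variance trend or the methods' t-test. At chr14:113244928-113245014 (25 probes, type 1), inside CPEB3, which encodes an RNA-binding regulator of translation, the log2 signal was 2.39 ± 0.18 in group PIV and 2.68 ± 0.29 in group CON (log2 FC −0.30, SE 0.13; exact permutation test, p = 0.0563). This call was lost without PIV pigs P10 or P31 or CON pigs K1 or K3 (log2 FC −0.29 to −0.20), or with the methods' t-test. CPEB3 itself lay at 5.46 in both groups, with a log2 FC of 0.00. The dots for the 9 distinct members past the filter show that the groups are apart in 1 of them.

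**Figure D4:**
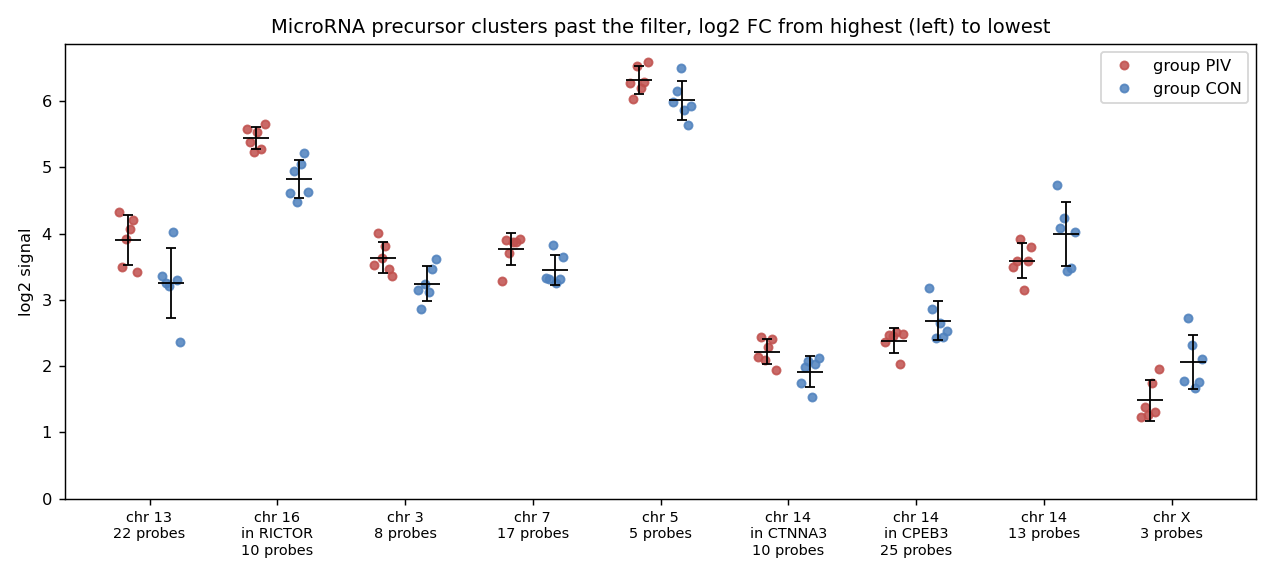
Log2 signal of each pig for the 9 distinct microRNA precursor clusters past the filter, with group PIV to the left of group CON, ordered from the highest to the lowest log2 FC (0.65 to −0.58), and black bars for the mean and SD of 6 pigs. The PIV and CON pigs are apart only for the cluster inside RICTOR, where they lay from 5.23 to 5.65 in group PIV and from 4.47 to 5.22 in group CON.

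Of the RefSeq microRNA clusters, MIR221 (2.28 ± 0.20 in group PIV and 1.92 ± 0.31 in group CON) and MIR551A (3.18 ± 0.18 in group PIV and 2.90 ± 0.16 in group CON) passed the filter as higher. MIR138 (2.78 ± 0.30 in group PIV and 3.18 ± 0.27 in group CON) and MIR664 (3.26 ± 0.21 in group PIV and 3.53 ± 0.25 in group CON) passed as lower. All 4 were dim. MIR551A was lost with quantile normalization applied again or equal array medians (log2 FC 0.26 in both) and without PIV pig P30 or CON pigs K1, K22 or K23 (log2 FC 0.21 to 0.26). MIR664 was lost with the methods' t-test and without PIV pigs P12, P29 or P31 or CON pigs K3, K4 or K42 (log2 FC −0.28 to −0.20).

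Small differences in the same direction were more common than calls. The median log2 FC of the members was 0.04, against 0.01 over all clusters tested, and 152 of 229 (66.4%) were above 0, against 52.3% of all clusters tested. The RefSeq microRNA clusters, with a median of 0.03, were above 0 in 139 of 226 cases (61.5%). With the medians of all arrays set equal, the 2 medians were 0.02 and −0.01 and the shares 60.3% and 45.3%. Among bright members 40 of 47 (85.1%) had a log2 FC above 0, with a median of 0.06, against 47.8% of all bright clusters, with a median of −0.01, and 20 of 32 bright RefSeq microRNA clusters (62.5%). With equal values counted once the bright members above 0 were 32 of 39, and with equal array medians 35 of 47 (74.5%), against 40.1% of all bright clusters and 50.0% of the bright RefSeq microRNA clusters. Bright members of type 3 were above 0 in 29 of 31 cases and those of type 1 in 11 of 16, against 49.6% and 47.5% of all bright clusters of these types. Among dim members the share was 112 of 182 (61.5%), against 56.3% of all dim clusters and 119 of 194 dim RefSeq microRNA clusters (61.3%). A member can also count as bright through 1 group alone, as the one inside RICTOR described above was at 5 or more in 6 PIV pigs and 2 CON pigs. Of 35 bright members at 5 or more in all 12 pigs 30 were above 0, and of the 12 other bright members 10 were. Of these 12, 5 had more PIV than CON pigs at 5 or more, and all 5 were above 0. The rest had as many or more CON pigs at that level. Among members with a mean over all 12 pigs of at least 5, a limit chosen after the data were seen, 41 of 48 (85.4%) were above 0, against 47.5% of all clusters with such a mean.

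The bright members moved together from pig to pig, and the groups overlapped in this movement. The median deviation of the 47 bright members from their own means over 12 pigs ranged from −0.09 (P29) to 0.19 (P50) in group PIV and from −0.24 (K22) to 0.20 (K42) in group CON. The lowest 2 pigs, K1 and K22, and the highest, K42, were all in group CON. In these 3 pigs and in P50 the bright clusters of the array as a whole deviated slightly the other way, by 0.02 in K1, 0.03 in K22, −0.04 in K42 and −0.02 in P50. The signs were also opposite in P10, P29, P31, K4 and K23, and they were equal in P12, P30 and K3. CON pig K22 also had the lowest array weight of the 12 (0.52) and the lowest array median (4.75), and K42 had the second lowest weight (0.66) and the highest median (4.88). Without CON pig K1 33 of the 47 bright members were above 0 and without CON pig K42 42 were, with median log2 FCs of 0.03 and 0.12. The part of array quality or of sample handling in this common movement was not tested, and the bright members, which share it, are not independent of each other.

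**Figure D5:**
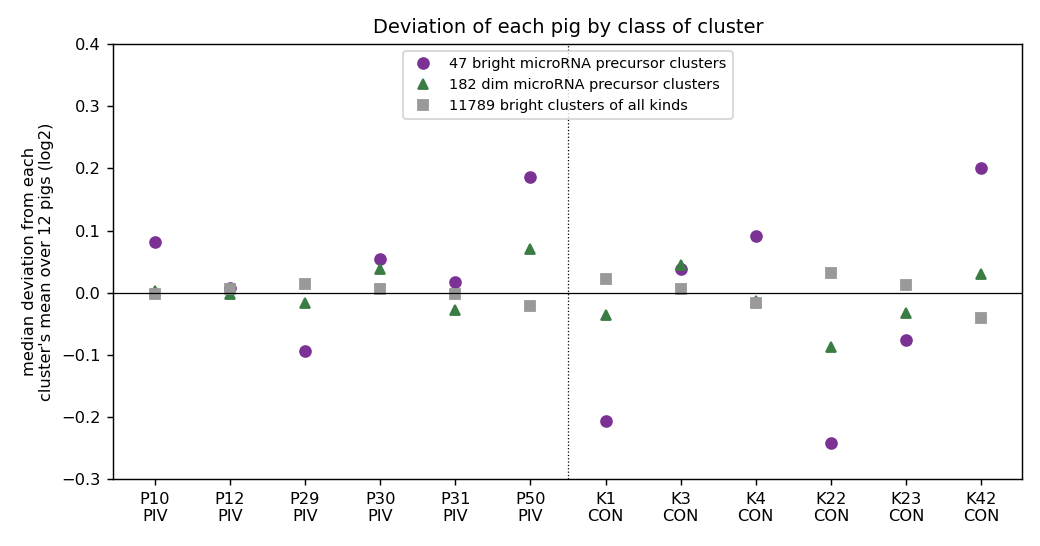
Median deviation of each pig, in log2 units, from each cluster's own mean over 12 pigs, for 47 bright and 182 dim microRNA precursor clusters and for all 11789 bright clusters, with the PIV pigs to the left of the CON pigs. The bright microRNA precursor clusters range from −0.09 to 0.19 in group PIV and from −0.24 to 0.20 in group CON, against −0.04 to 0.03 for all bright clusters.

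Host genes gave no matching differences. A gene with a symbol held 41 members on the same strand, that is, 40 distinct pairs with 37 host genes, and a further 25 members lay in a gene on the opposite strand only. In 28 of the 40 pairs the host had the higher signal, the medians being 2.97 for members and 4.60 for hosts. Members in genes that are highly expressed in liver could be dim, as in UGP2, which makes UDP-glucose (member 1.23, host 9.89), and GALM, an enzyme of galactose metabolism (member 1.10, host 7.29). Of the 37 hosts 1 passed the filter, SEPT6, a septin gene of the cytoskeleton, at 5.97 in group PIV and 5.67 in group CON (log2 FC 0.29), against 1.82% of all clusters, and its own member had a log2 FC of 0.00. SEPT6 was lost with array weights (log2 FC 0.26) and without PIV pig P30 or CON pig K22 (log2 FC 0.24 in both). The 3 members past the filter with a host on the same strand, in RICTOR, CTNNA3 and CPEB3, lay in hosts that did not pass. The log2 FC of member and host had the same sign in 24 of the 40 pairs.

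Of the genes that make and use microRNAs, most were bright in the cluster kept and none passed the filter. Where a gene had more than 1 cluster, 1 was kept, as a rule the brightest, so the counts cover only the kept clusters. Of 47 symbols on this list, some of them older names of the same gene, 30 were measured, 27 of them bright, and 0 passed the filter with limma or with the methods' t-test, against 1.82% of all clusters. At an unadjusted p under 0.05 there was 1. The median log2 FC was −0.01. The nuclear cutting enzyme DROSHA was at 5.55 in group PIV and 5.56 in group CON in a cluster of 40 probes. A second DROSHA cluster (25 probes), which was not bright, had medians of 4.49 in group PIV and 4.48 in group CON. DGCR8, the partner of DROSHA, was at 5.47 in group PIV and 5.43 in group CON, and DICER1 at 7.29 in group PIV and 7.27 in group CON. The gene with the smallest p was AGO4, of an Argonaute protein, with a log2 signal from 6.10 to 6.30 in group PIV (median 6.22) and from 5.77 to 6.25 in group CON (median 5.99). Its groups overlapped only through CON pig K23 (6.25), and its log2 FC of 0.21 (SE 0.08; exact permutation test, p = 0.0152) was too small for the filter. The export receptor XPO5 was at 6.72 ± 0.12 in group PIV and 6.91 ± 0.20 in group CON (log2 FC −0.19; exact permutation test, p = 0.0823), the RNA helicase gene MOV10 had a log2 FC of 0.12, and TSNAX, of a subunit of the RNA nuclease complex C3PO, −0.11.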

How the data were processed

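Liver RNA of 12 pigs (6 of group PIV, 6 of group CON) was hybridised to 1 array per pig. The authors normalized and summarised the arrays with RMA in Affymetrix Expression Console 1.4, as the submitters' processing notes say. Values were deposited as log2 signals, 1 per transcript cluster and pig, and no raw intensity was used here. Other columns were used per the file headers, namely the number of probes and the annotation text. Columns with the log2 ratios, fold changes and p-values that the authors computed were not used.

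Members were the clusters whose annotation text holds the Ensembl biotype microRNA and no small nucleolar or small nuclear RNA. The members and the 20 gene lists were chosen with earlier results of these data known. In the lists each gene was counted with 1 cluster, as a rule its brightest. After 3 ribosomal RNA clusters were left out, 25385 were fitted with limma 3.58.1 in R 4.3.3 (lmFit, eBayes), group PIV minus group CON, with Benjamini-Hochberg adjustment over all of them. Single clusters were compared with a two-sided exact permutation test over 924 assignments, whose p is unadjusted. The 2 probe groupings, by probe number and by type, came from the annotation. Host genes are clusters with a symbol whose interval in the array annotation, of a build not given in the sources used here, holds the member. Members were named where they passed the filter (up to 10 in each direction), were the 5 brightest, dimmest or most variable, or were found by name in the lists with their hosts and neighbours within 10 kb. The clusters of type 1 beyond the 5 brightest, the second member without overlap, the RefSeq clusters past the filter, the neighbours of members not past it and the hosts SEPT6, UGP2, GALM and PPP1R10 were named after their values were seen. The alternatives tried were a variance trend, array weights, the methods' t-test, a signal limit, other scalings, the value table of the series, other FC thresholds, other choices of members and leaving out each pig. The fit was tested on simulated data. The number of arrays limits the precision.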

Additional observations from a re-analysis of the deposited data

Results flagged for a closer look

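In 6 of 102 groups of 6 pigs examined, 1 pig lay far from the other 5, with a gap larger than Dixon's critical value for 6 pigs, which chance meets in about 1 group of 20. In group PIV, pig P31 (2.03) lay below the other 5 PIV pigs (2.36 to 2.52) for the member inside CPEB3, and pig P10 (3.29) lay below the others (3.70 to 3.93) for the member opposite to NEIL1. For the host cluster of CTNNA3 (31 probes), PIV pig P12 (4.73) lay above the other PIV pigs (3.70 to 4.08) and CON pig K1 (4.67) above the other CON pigs (3.63 to 4.00). For MIR551A, PIV pig P30 (3.54) lay above the others (3.05 to 3.21). In group CON, pig K3 (1.32) lay above the others (0.91 to 1.04) for the dim member on chromosome 10 (chr10:51108469-51108567).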

How the results depend on the processing

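None of the 51 single clusters examined changed its direction while past the filter. Of 14 past the filter, 6 stayed past it without any 1 pig and 8 did so under each other setting in which they were tested. The methods' t-test passed 300 of all clusters, the signal limit of 5 in 6 pigs 161, no FC threshold 921 and a FC above 1.5 25, against 462. Members past the filter numbered 2 under the signal limit (of 47 tested), 2 at a FC above 1.5, 6 of 173 with at least 10 probes and 6 of 142 of type 1, against 10 of 229. The member inside RICTOR, kept under the signal limit, met it through group PIV, with 6 PIV pigs and 2 CON pigs at 5 or more. By probe number, the signal limit left 1, 0, 1, 0 and 0 members from the fewest to the most probes, and a FC above 1.5 left 0, 0, 1, 1 and 0. With 20 to 24 probes there were 2 with array weights and 3 without FC threshold, and with 25 or more probes 0 with the methods' t-test. Host genes past the filter numbered 0 with array weights or a FC above 1.5, and 1 biogenesis gene passed without FC threshold. The cause of these changes, beyond fewer clusters tested under the signal limit and other choices of members, was not tested.

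Leaving out each pig in turn gave 8 to 12 members past the filter and 427 to 705 clusters in all (705 without CON pig K42), 2 to 4 members with 1 to 5 probes, 1 to 3 with 6 to 9, 2 to 6 with 10 to 19, 1 to 3 with 20 to 24, 0 to 1 with 25 or more, and 0 to 2 host genes. The median log2 FC of members stayed between 0.02 and 0.06, their median signal between 2.68 and 2.75 and their median SD between 0.19 and 0.21. With equal array medians the median of all clusters was −0.01 and 266 of 460 calls were lower in group PIV, against 200 of 462 otherwise, while members kept 6 higher and 4 lower. No paired analysis was possible because the groups compared share no pig numbers or pens in the labels.

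Most members were dim, and no background was measured, so a difference at a log2 signal under 2 is weakly supported. Clusters of few or mixed probes, 2 clusters with equal values and probe sets that differ for 1 locus limit what a call says of 1 microRNA.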
